A study of Triticum aestivum with 18 samples.

Results

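The data described here are the 6 libraries of the wheat variety ZM22 (Zhoumai 22), 3 from waterlogged seeds (W72_ZM22) and 3 from control seeds (C72_ZM22), out of 18 libraries in the series. They were chosen by the variety and treatment given in the sample records. The other 12 libraries come from the varieties BN207 and BN607 under the same treatments, and they entered the fits so that the spread between replicates could be estimated over 6 groups. ZM22 is a commercial winter wheat that the study describes as intolerant of waterlogging. In W72_ZM22, seeds lay under water for 72 h. They were then germinated for 72 h in a dish, where they touched water without being covered by it. Sample records give a water depth of 10 cm, whereas the paper describes submergence in Petri dishes. The sources differ in the vessel and temperature of the waterlogging. In C72_ZM22, seeds were imbibed without waterlogging and then germinated for 72 h. In both groups the radicle and the coleoptile were cut off before RNA extraction. The paper reports that fewer ZM22 seeds germinated after waterlogging than in the control. Whether ungerminated seeds entered the libraries is not stated. Samples for qPCR, described as aliquots of those sequenced, are given as mixtures of 3 seeds. The waterlogged seeds had been wet for longer than the control seeds when they were sampled, and the time since wetting cannot be told apart from the waterlogging itself. In RNA from the mixed seed tissues that remained, fewer cells of a type and less RNA per cell cannot be told apart.

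A germinating cereal grain lives on its starchy endosperm. Gibberellin from the embryo makes the aleurone layer secrete amylases, proteases and wall-degrading enzymes, while abscisic acid holds this programme back. Under water, oxygen reaches the seed slowly, and plant cells short of oxygen turn from respiration to fermentation, in which pyruvate decarboxylase and alcohol dehydrogenase (ADH) regenerate the cofactor that glycolysis needs. The question put to the ZM22 libraries was which of these programmes differed between seeds set to germinate after waterlogging and seeds set to germinate without it.

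Expression is given as FPKM, the number of sequenced fragments per kilobase of a transcript, corrected for the size of the library. A locus in the table is either an assembled locus with an MSTRG name or a gene with a TraesCS name, and 50656 of 94141 loci reached 1 FPKM in at least 3 of the 18 libraries and were tested. Summed estimated counts were 68.8 to 97.6 M (mega) in W72_ZM22 and 92.6 to 104.8 M in C72_ZM22. Wheat carries up to 3 near-identical copies of most genes, on its A, B and D genomes, and how reads shared between copies were divided is not stated, so the value of a single copy is less certain than that of its family.

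The 6 libraries differed in growth state within each treatment. Histones package newly made DNA, and their transcripts mark dividing tissue. The library median of 242 tested histone loci, on the log2(FPKM + 1) scale, was 1.81, 4.72 and 2.58 in the 3 waterlogged libraries, against 1.30, 1.42 and 4.14 in the 3 control libraries. Waterlogged replicate 2 and control replicate 3 lay far above the others, and the groups overlapped. The means were 3.04 ± 1.51 in W72_ZM22 and 2.29 ± 1.61 in C72_ZM22 (SD, n = 3 each), a difference of 0.75 with p = 0.5 in a two-sided exact permutation test, for which 3 libraries against 3 cannot give a p below 0.1. Cyclins and DNA replication genes were ordered in the same way, with library medians of 0.72, 2.03 and 0.88 in waterlogged seeds and 0.41, 0.56 and 1.6 in control seeds. DNA replication licensing factor MCM6 (MSTRG.448), which opens replication origins, was at 2.09, 20 and 3.50 FPKM in W72_ZM22 and at 1.47, 1.38 and 12.3 FPKM in C72_ZM22. Because of this, every comparison below was fitted a second time with the histone median of each library as a covariate. The covariate is made from histone loci, so values of histone and cell division genes from that second fit are not read as results.

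**Figure D1:**
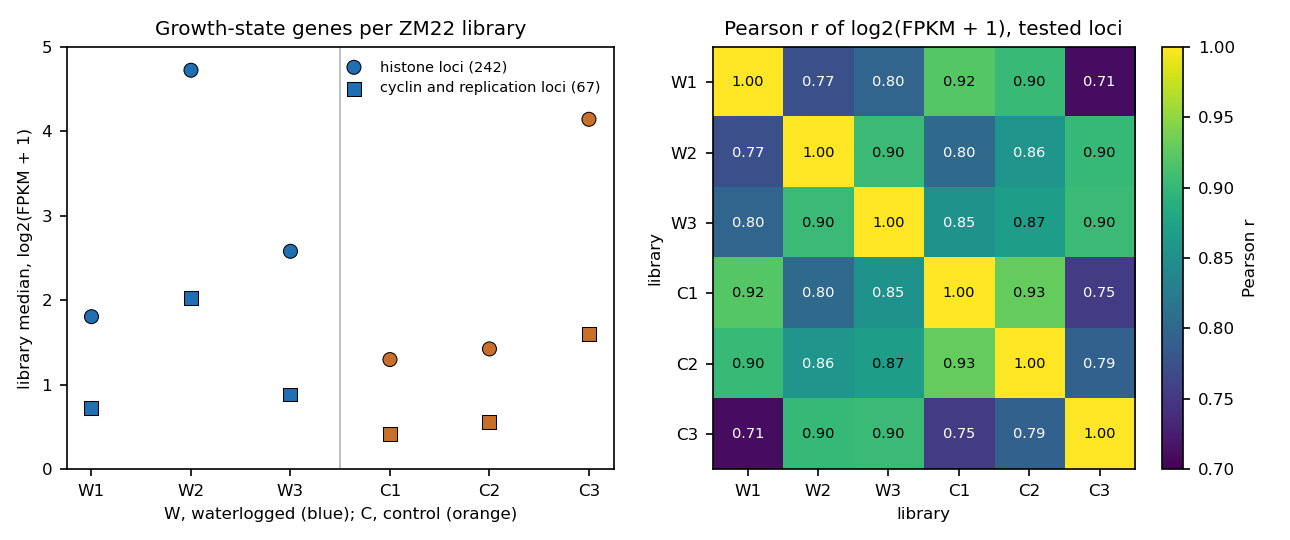
Left, library medians of log2(FPKM + 1) over histone loci and over cyclins and DNA replication genes, with 3 waterlogged (W) and 3 control (C) libraries. Right, Pearson correlation of log2(FPKM + 1) over all tested loci between each pair of the 6 ZM22 libraries. Waterlogged replicate 2 (4.72) and control replicate 3 (4.14) have the highest histone medians, and some pairs across treatments correlate as closely as replicates do.

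Replicates of 1 treatment were no closer to each other than to the other treatment. Pairwise correlations of log2(FPKM + 1) were 0.774 to 0.905 within W72_ZM22, 0.753 to 0.929 within C72_ZM22 and 0.710 to 0.921 between the treatments, with a between-treatment median of 0.867. The median locus had an SD of 0.412 among waterlogged and 0.373 among control libraries on that scale, while the group means were 0.176 apart. For 14.2% of loci the difference between treatments was larger than the pooled SD. With the covariate, the median standard error of a log2 fold change was 0.41, against 0.52 without it. The median log2 fold change over all tested loci was -0.02 without and -0.00 with the covariate.

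With this spread, few loci passed the test. In edgeR's quasi-likelihood test with Benjamini-Hochberg adjustment, 3 loci (0.00592% of those tested) passed an adjusted p of 0.05 without the covariate, 0 higher and 3 lower in waterlogged seeds, and 551 loci (1.09%) had an unadjusted p under 0.05, 164 of them higher (0.324%) and 387 lower (0.764%). With the covariate, 4 loci (0.0079%) passed, 1 higher (0.00197%) and 3 lower (0.00592%), and 1136 (2.24%) had an unadjusted p under 0.05, 444 higher (0.877%) and 692 lower (1.37%). The count of calls depended on single libraries. It was 5 without control replicate 1 and 8 without control replicate 3 in the fit without the covariate. With the covariate it was 11 without control replicate 1, 11 without control replicate 3, 7 without waterlogged replicate 1, 1 without waterlogged replicate 2 and 2 without W72_BN207 library 1. DESeq2 on the same loci called 144 without and 193 with the covariate, and limma on log2(FPKM + 1) called 0 in both, with 492 and 1126 loci at an unadjusted p under 0.05. The study's own thresholds, an unadjusted p under 0.05 and a log2 fold change beyond 1, were passed by 412 loci (0.813%) without the covariate, 112 higher (0.221%) and 300 lower (0.592%). With the covariate 745 loci (1.47%) passed them, 241 higher (0.476%) and 504 lower (0.995%). These sets shared 361 loci, 87.6% of those without and 48.5% of those with the covariate, all with the same sign in both fits.

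In edgeR, 1 locus was called higher in waterlogged seeds, and only in the fit with the covariate. DESeq2 called 32 loci higher without and 48 with the covariate. The edgeR call was MSTRG.10405 (TraesCS2D02G368000, chromosome 2D, 472469938 to 472472775, IWGSC RefSeq v1.0), a predicted protein with the annotation of a serine/threonine kinase. Such enzymes relay signals by phosphorylating other proteins. The locus was at 5.71, 5.20 and 7.17 FPKM in W72_ZM22, against 1.27, 0.552 and 0.401 FPKM in C72_ZM22. The groups did not overlap, and the lowest waterlogged library stood well above the highest control library. The means were 6.03 ± 1.02 and 0.741 ± 0.465 FPKM (SD, n = 3 each), 8.13-fold higher in waterlogged seeds. The log2 fold change was 3.49 (SE 0.42, adjusted p = 0.0232 in edgeR) with the covariate and 2.85 (SE 0.82, adjusted p = 1) without it. It passed the test under 8 of 18 alternative settings with the covariate, over which its adjusted p ranged between 1.7e-13 and 1, and under 0 of 15 without the covariate. In the other varieties it was at 1.11 to 6.86 FPKM in waterlogged and at 1.71 to 8.42 FPKM in control seeds, with no gap between treatments.

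The 3 loci that edgeR called lower in both fits were barely expressed in ZM22 under either treatment. MSTRG.1763 (TraesCS1B02G048800, chromosome 1B, 28561964 to 28564707), a hypothetical protein, was at 0 in all 3 waterlogged libraries, against 0.10, 0.0848 and 0.210 FPKM in control libraries. Those control values rest on estimated counts of 15, 14 and 35. Set against a floor of 3 estimated counts per library, it was 5.87-fold lower in waterlogged seeds. Its adjusted p was 0.00328 without and 0.00688 with the covariate in edgeR. MSTRG.30200 (chromosome 6B, 715743060 to 715751618), which has no gene name, was at 0 in W72_ZM22, against 0.0625, 0.0429 and 0.0345 FPKM in C72_ZM22. Against that floor it was 3.48-fold lower (edgeR adjusted p = 0.00134 and 0.00159 with the covariate). MSTRG.27378 (TraesCS6A02G040900, chromosome 6A, 21306344 to 21308835), an uncharacterized protein, was at 0 in W72_ZM22, against 0.0588, 0.0551 and 0.0267 FPKM in C72_ZM22. The fold against the floor was 1.88 (edgeR adjusted p = 0.0348 and 0.0313 with the covariate). All 3 passed the filter on low values only through the other varieties, in which MSTRG.1763 was at 3.39 to 13.1 FPKM, MSTRG.30200 at 6.43 to 10.7 FPKM and MSTRG.27378 at 3.62 to 5.69 FPKM under both treatments. Each rests on a few counts in 3 libraries. With all counts divided by 4 none of the 3 passed. The counts are estimates, and how many of them equal 1 sequenced fragment is not stated, so the folds against the floor are not lower bounds.

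**Figure D2:**
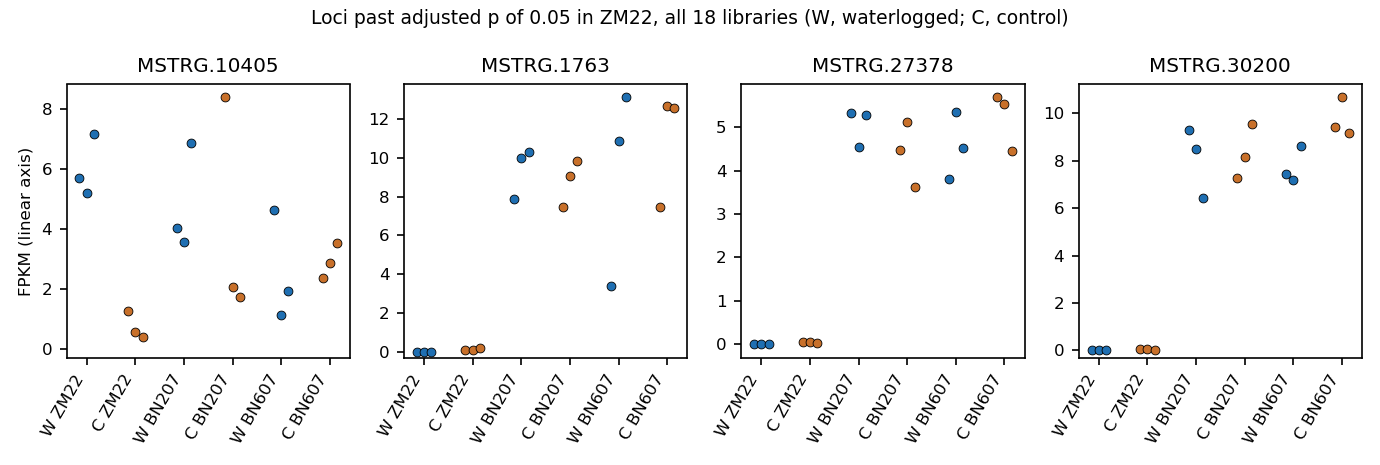
FPKM of the 4 loci called by edgeR in ZM22, by group in all 18 libraries (linear axis, 1 point per library, blue for waterlogged and orange for control). MSTRG.10405 is higher in the 3 waterlogged than in the 3 control ZM22 libraries, whereas MSTRG.1763, MSTRG.27378 and MSTRG.30200 are at or near 0 in both ZM22 groups and higher in the other varieties, at 3.39 to 13.1 FPKM for MSTRG.1763.

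Beyond those calls, loci are given below as values, most of them without overlap between the treatments. For 3 libraries against 3, a lack of overlap gives no less than p = 0.1 in a two-sided exact permutation test. It is therefore not by itself evidence of a response, and at some of the loci the groups nearly touched. All 3 waterlogged libraries lay above all 3 control libraries at 928 loci (1.83%), and below them at 793 loci (1.57%), 1721 loci (3.4%) in all. Among the 5215 loci that reached a mean of 20 FPKM in either group, 106 (2.03%) lay above and 82 (1.57%) below. The loci named in the next 5 paragraphs were mostly singled out after their values were seen, and none of them passed an adjusted p of 0.05 in edgeR.

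Several lipid transfer proteins, a chitinase and copies of an enzyme that breaks down abscisic acid lay below in all libraries. Lipid transfer proteins are small secreted proteins that carry lipids and line cell walls, and some of them inhibit fungi. MSTRG.23319, a type 2 lipid transfer protein on chromosome 5A, was at 4.96, 2.27 and 2.68 FPKM in W72_ZM22, against 186, 64.0 and 65.0 FPKM in C72_ZM22. The groups were far apart, with a log2 fold change of -5.11 (SE 1.34) and, with the covariate, -4.51 (SE 0.85, edgeR adjusted p = 0.97). DESeq2 called it, with adjusted p of 0.000947 without and 7.41e-07 with the covariate. MSTRG.19934, a lipid transfer protein of the 2G type on chromosome 4B, was at 7.99, 11.1 and 6.97 FPKM in W72_ZM22, against 174, 93.1 and 101 FPKM in C72_ZM22, again without overlap (log2 fold change -4.0, SE 1.05). MSTRG.36656, another member with no assigned chromosome, was at 3.20, 30.3 and 7.64 FPKM against 177, 39.2 and 90.6 FPKM. The family did not move as a whole, since 4 of its 7 tested loci had a positive log2 fold change. MSTRG.2292 and MSTRG.3974 on the group 1 chromosomes were at 5.67, 42.8 and 9.28 FPKM and at 1.29, 19.2 and 4.14 FPKM in waterlogged seeds, against 3.45, 3.85 and 13.1 FPKM and 0.628, 0.780 and 3.88 FPKM in control seeds, with overlap at both loci.

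A class II chitinase (MSTRG.33196), an enzyme that cuts the chitin of fungal walls, was at 7.12, 7.22 and 31.8 FPKM in W72_ZM22, against 119.8, 69.8 and 71.1 FPKM in C72_ZM22. Wheatwin-1 (MSTRG.12868), a pathogenesis-related protein of the PR-4 family, was at 126, 196 and 183 FPKM in W72_ZM22, against 852, 579 and 346 FPKM in C72_ZM22. Neither locus overlapped between treatments, but their standard errors were large, with log2 fold changes of -2.62 (SE 1.26) and -2.02 (SE 1.98). The most abundant chitinase locus, endochitinase PR4 (MSTRG.8274), was similar in both, at 8382, 3620.1 and 12199 FPKM in waterlogged and 9788, 4287 and 8421 FPKM in control seeds. Of 210 tested small defence protein loci, 5 lay above and 12 below in all libraries (against 1.83% and 1.57% of all tested loci). Their median log2 fold change was -0.13. Among the 195 that passed the filter by the other varieties alone, 3 lay above and 12 below. At an unadjusted p under 0.05 in edgeR, 8 of the 210 were higher and 5 lower (against 0.324% and 0.764% of all tested loci). Of 72 tested chitinase and glucanase loci, 0 lay above and 1 below, with a median of -0.17.

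ABA 8'-hydroxylases inactivate abscisic acid. MSTRG.28154 on chromosome 6A was at 10.4, 10.9 and 10.2 FPKM in W72_ZM22, against 64.8, 22.5 and 22.7 FPKM in C72_ZM22 (log2 fold change -1.99, SE 0.76). Its copies on 6D and 6B did the same: MSTRG.30997 was at 15.3, 11 and 11.1 FPKM against 68.9, 21.1 and 23.7 FPKM, and MSTRG.29628 at 9.01, 3.6 and 3.55 FPKM against 34.5, 12.7 and 11.6 FPKM. All 3 copies lay below in every library, and they may share reads. Summed over the 9 loci of the family, the level was 42.6, 26.5 and 27.7 FPKM in waterlogged and 174, 65.7 and 62.0 FPKM in control seeds. The same pattern was seen at EC protein III (MSTRG.754), a metal-binding seed protein, with 137, 59.5 and 26.2 FPKM against 521, 139 and 172 FPKM. Of 5 loci of phosphatidylinositol 4-kinase type 2-beta, which phosphorylates a membrane lipid, 3 lay below in all libraries (against 1.57% of all tested loci). This family was singled out after its values were seen, so the count is not read as a result. Its locus MSTRG.33582 was at 5.03, 3.12 and 16.2 FPKM against 61.7, 47.7 and 53.0 FPKM.

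Among the higher loci were some chaperones, some parts of the translation and import machinery and a starch-degrading enzyme. HSP90 (MSTRG.24329), a chaperone of signalling proteins, was at 11.7, 117 and 80.0 FPKM in W72_ZM22, against 7.18, 9.98 and 10.6 FPKM in C72_ZM22. Waterlogged replicate 1 was only just above the controls there, and the log2 fold change was 2.68 (SE 0.87). Heat shock proteins did not rise as a list. Of 77 tested loci, 2 lay above and 0 below in all libraries (against 1.83% and 1.57% of all tested loci), with a median of 0.09. A chloroplastic malate dehydrogenase (MSTRG.3012), which interconverts malate and oxaloacetate, was at 23.1, 21.0 and 16.8 FPKM against 4.58, 3.43 and 2.10 FPKM (log2 fold change 2.42, SE 0.75). Alpha-amylase isozyme 3A (MSTRG.22281) was at 611, 219 and 299 FPKM against 213, 51.6 and 78.9 FPKM, where the lowest waterlogged and the highest control library almost touched. Chaperones of the endoplasmic reticulum, endoplasmin and luminal-binding protein, which fold secreted proteins, lay above in all libraries at 5 of 8 tested loci (against 1.83% of all tested loci), a family singled out after its values were seen. Their 19 loci summed to 267, 303 and 320.4 FPKM in W72_ZM22, against 155, 172 and 241 FPKM in C72_ZM22. Subunits of the vacuolar proton pump summed to 1407, 1634 and 1437 FPKM against 1233, 1278 and 1257 FPKM, with 6 of 30 tested loci above (against 1.83% of all tested loci). They too were singled out after their values were seen, so neither family's count is read as a result.

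Translation and mitochondrial import followed the histones in part. Ribosomal proteins summed to 9849, 20239 and 11779 FPKM in W72_ZM22, against 8713, 6965 and 12140.3 FPKM in C72_ZM22. Of 278 tested loci, 15 lay above and 0 below in all libraries (5.40% against 1.83% of all tested loci above), and 269 had a positive log2 fold change, with a median of 0.42 that shrank to 0.13 with the covariate. The 60S ribosomal protein L23a (MSTRG.6265) was at 204, 241 and 168 FPKM against 124, 124 and 137 FPKM. Receptor subunits of the mitochondrial import pore (TOM) summed to 105, 261 and 148 FPKM in waterlogged and 94.3, 80.4 and 113 FPKM in control seeds, and TOM5 (MSTRG.21644) was at 18.8, 47.4 and 34.7 FPKM against 16.8, 15.7 and 18.4 FPKM. The library with the highest ribosomal and TOM sums, waterlogged replicate 2, was also the one with the highest histone median. Copies of elongation factor 1-alpha, which brings tRNAs to the ribosome, went both ways: MSTRG.22859 was at 139, 188 and 104 FPKM against 96.9, 58.1 and 49.0 FPKM, and MSTRG.17145 at 18.2, 20.7 and 14.7 FPKM against 47.4, 40.9 and 59.2 FPKM.

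**Figure D3:**
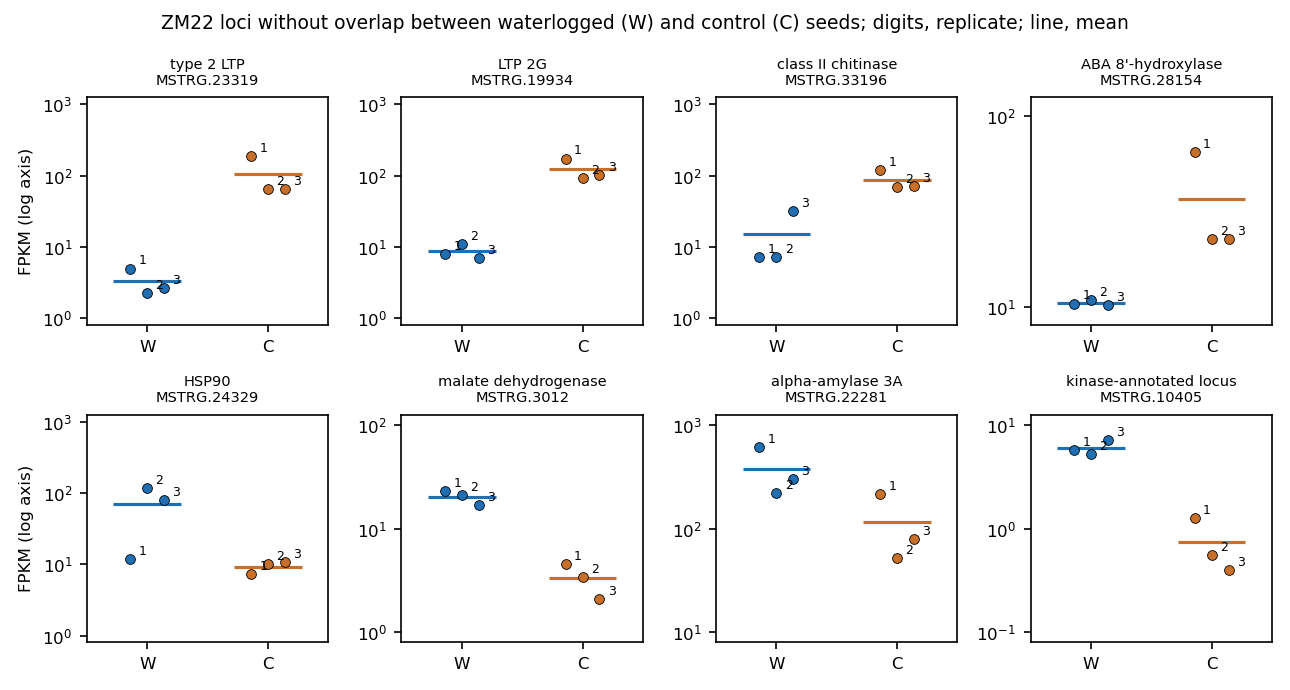
FPKM (log axis) of 8 loci whose waterlogged (W) and control (C) ZM22 libraries do not overlap, with 3 libraries per treatment as points and the mean as a line. The type 2 lipid transfer protein MSTRG.23319 lies between 2.27 and 4.96 FPKM in waterlogged and between 64.0 and 186 FPKM in control libraries.

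No locus in any of the 36 lists passed an adjusted p of 0.05 in either edgeR fit, and each list is described below by its counts and its median log2 fold change, beside the median of -0.02 (-0.00 with the covariate) over all tested loci.

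Transcripts of gluten proteins, the reserve that the endosperm lays down while the grain fills, were low in every library but control replicate 1. The 98 gluten loci (gliadins and glutenins) summed to 0.866, 0.503 and 8.43 FPKM in W72_ZM22, against 530.4, 7.41 and 4.59 FPKM in C72_ZM22. Control replicate 1 held nearly all of the signal, and waterlogged replicate 3 lay above the other control libraries, so the sums overlapped. A gamma-gliadin (MSTRG.3396) was at 0.0475, 0.00836 and 0.113 FPKM against 35.0, 0.653 and 0.180 FPKM. DESeq2 called it, with adjusted p of 8.08e-05 without and 0.000102 with the covariate, whereas edgeR did not. That call is not read as a result, since control replicate 1 set the control mean. Of the 19 tested gluten loci, 12 passed the filter only with the help of the ZM22 libraries, so their separation is in part a product of the filter and no count over the 19 is read as a result. Of the other 7, 2 lay below in all libraries (against 1.57% of all tested loci). Over the 19, the median log2 fold change was -7.78 and, without control replicate 1, -2.26. It was -7.50 with the 4 loci at 0 in all waterlogged libraries set at the count floor. These medians share the limit set by the filter. Over the 7 loci that passed it by the other varieties alone, the median was -3.77. Globulins behaved differently: globulin-3A (MSTRG.17876), an embryo and aleurone reserve, was at 747, 149 and 97.8 FPKM against 935, 583 and 172 FPKM, with overlap. The sums of 26 globulin loci were 4284, 687 and 474 FPKM in waterlogged and 4398, 2922 and 702 FPKM in control seeds.

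LEA proteins and dehydrins, which protect dry seeds, summed to 1835, 1013 and 769 FPKM in W72_ZM22, against 1771, 1321 and 788 FPKM in C72_ZM22. Their 47 tested loci had a median log2 fold change of -0.20, or 0.26 with the covariate, so the sign of the median depended on the fit, and it was -2.16 without waterlogged replicate 1. Lea5 (MSTRG.12535) was at 629, 124 and 2.98 FPKM against 232, 121 and 19.2 FPKM, spanning more than the treatments differed. Genes of oil reserves and the glyoxylate cycle, which turn fat into sugar, overlapped as well. Isocitrate lyase (MSTRG.5721) was at 524, 181 and 924 FPKM against 439, 166 and 538 FPKM, whereas a caleosin of the oil body surface (MSTRG.6322) was at 23.2, 5.99 and 8.53 FPKM against 130.0, 19.9 and 16.3 FPKM.

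Starch breakdown was strong in both groups and did not separate. The 57 alpha- and beta-amylase loci summed to 16793, 8774 and 27398 FPKM in W72_ZM22, against 25854, 10053 and 9278 FPKM in C72_ZM22. Of 40 tested loci, 2 lay above and 0 below in all libraries (against 1.83% and 1.57% of all tested loci), and the median log2 fold change was 0.08, or 0.49 with the covariate, and -0.32 without waterlogged replicate 3. The most abundant alpha-amylase (MSTRG.31242) was at 1253, 847 and 3362 FPKM against 2562, 779 and 1229.5 FPKM. A second one (MSTRG.36102) was at 1629, 741 and 1459.7 FPKM against 1948, 1170.2 and 150.1 FPKM, with control replicate 3 alone at a low level. Starch synthesis loci had a median of 0.25, and the small subunit of ADP-glucose pyrophosphorylase (MSTRG.35739), which makes the sugar donor for starch, was at 13.4, 17.3 and 16.0 FPKM against 6.88, 9.64 and 15.3 FPKM. Endosperm wall enzymes were led by single libraries: endo-1,4-beta-xylanase Z (MSTRG.24923) was at 0.615, 0.230 and 43.6 FPKM against 4.56, 0.557 and 0.555 FPKM, and its log2 fold change of 2.80 turned to -2.30 without waterlogged replicate 3. Cathepsin B (MSTRG.20208), a protease that digests storage protein, was at 1276, 525 and 1667 FPKM against 1271, 965 and 1401 FPKM.

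Genes of the low-oxygen response did not separate the treatments after 72 h of germination. The 24 fermentation loci summed to 4536, 943 and 1073 FPKM in W72_ZM22, against 2260.4, 2854 and 730.4 FPKM in C72_ZM22. Waterlogged replicate 1 and control replicates 1 and 2 were high, and the other libraries were low. ADH1A (MSTRG.20357) was at 1257, 261 and 277 FPKM against 772, 873 and 132 FPKM, and its copy on 4A (MSTRG.17520) at 1115, 340.3 and 345 FPKM against 596, 832 and 189 FPKM. ADH2A (MSTRG.17521) was at 369.8, 5.81 and 13.2 FPKM against 31.1, 69.4 and 6.05 FPKM, so that 1 library set its mean. The sole fermentation locus without overlap was ADH2D (MSTRG.17522), at 24.1, 6.38 and 5.85 FPKM against 5.82, 4.53 and 3.92 FPKM. The median log2 fold change of 22 tested loci was 0.01, or 0.35 with the covariate, and without waterlogged replicate 1 it was -0.65 and -0.17 in these fits.

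The most abundant locus with the enzyme number of pyruvate decarboxylase (MSTRG.20735) was at 455, 75.8 and 129 FPKM in W72_ZM22, against 288, 218 and 69.1 FPKM in C72_ZM22. Lactate dehydrogenase A (MSTRG.34414), which ferments pyruvate to lactate, was at 106, 34.0 and 38.4 FPKM against 168, 65.8 and 0.213 FPKM. Haemoglobin 1, which scavenges nitric oxide at low oxygen, followed ADH over the libraries, and its most abundant copy (MSTRG.20947) was at 1236, 274 and 297 FPKM against 1301, 768 and 109 FPKM. Sucrose synthase 1 (MSTRG.35268), which splits sucrose at a low energy cost, was at 534, 53.7 and 37.9 FPKM against 210.3, 436 and 32.8 FPKM. Plant cysteine oxidase 1 (MSTRG.25383), an oxygen-sensing enzyme that is itself induced by low oxygen, was at 12.6, 2.26 and 2.70 FPKM against 2.65, 1.06 and 1.13 FPKM (log2 fold change 1.81, SE 1.16, and 1.98, SE 0.77, with the covariate), with the control range reaching into the waterlogged one. Alternative oxidase (MSTRG.8612), a bypass of the respiratory chain, was at 2.32, 3.65 and 5.78 FPKM against 19.1, 10.3 and 2.99 FPKM. A metallothionein (MSTRG.3500), a metal-binding protein, was high where ADH and haemoglobin were low, at 59.8, 3700.4 and 3340.3 FPKM against 456, 1686 and 5902 FPKM. Glycolysis loci had a median of -0.05, and enolase (MSTRG.25341) was at 1277, 484 and 324 FPKM against 809, 1105 and 277 FPKM.

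**Figure D4:**
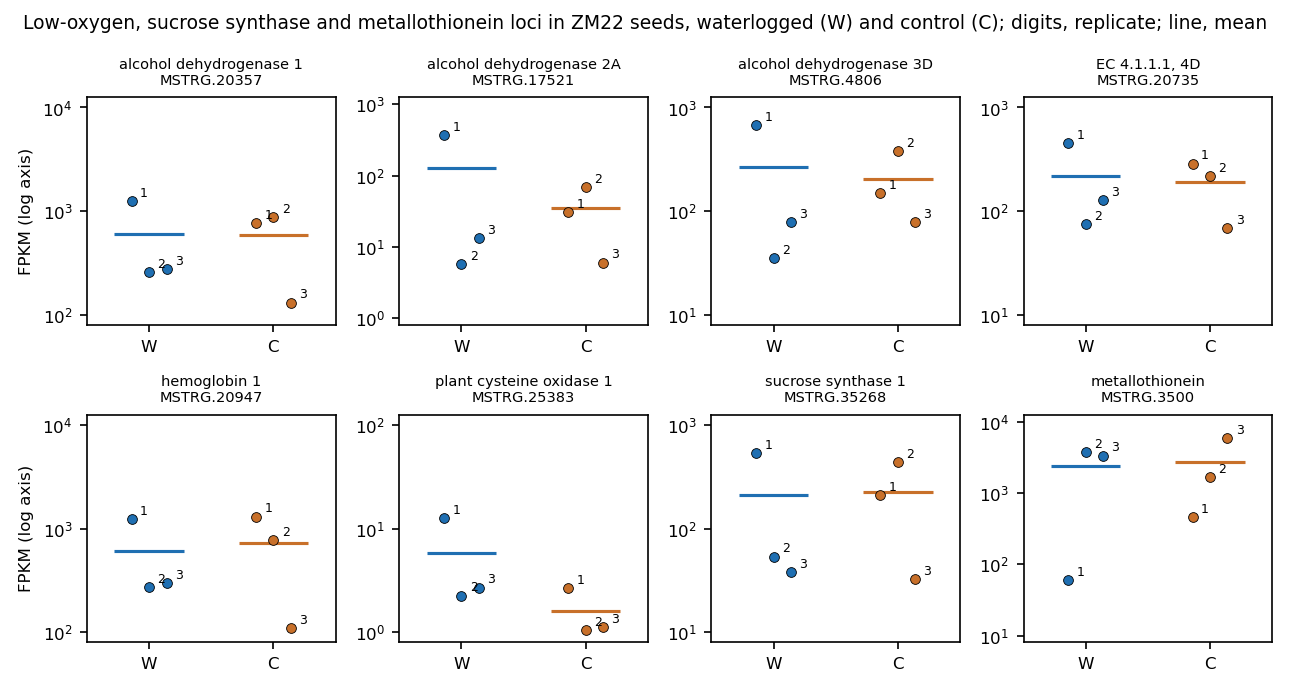
FPKM (log axis) of 8 loci of fermentation, haemoglobin, sucrose synthase, cysteine oxidase and metallothionein in 3 waterlogged (W) and 3 control (C) ZM22 libraries, with the mean as a line. The ranges of the treatments overlap at ADH1A (MSTRG.20357), at 261 to 1257 FPKM in waterlogged and 132 to 873 FPKM in control libraries.

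Apart from the ABA 8'-hydroxylases above, hormone genes overlapped between the treatments at most of the loci named here. Gibberellin 20 oxidase 1 (MSTRG.18707), a late step of gibberellin synthesis, was at 11.5, 24.1 and 7.63 FPKM in W72_ZM22, against 22.9, 54.1 and 44.3 FPKM in C72_ZM22, and its copy on 4A (MSTRG.17640) at 14.3, 80.8 and 14.4 FPKM against 48.5, 98.3 and 64.5 FPKM. The DELLA protein Rht-A1 (MSTRG.17788), the repressor of gibberellin responses, was at 24.6, 28.4 and 31.5 FPKM against 35.8, 29.9 and 28.2 FPKM. Gibberellin pathway loci had a median of -0.33, or -0.61 with the covariate, and without waterlogged replicate 1 the median was 0.18 and -0.00 in these fits. Of the 18 loci, 2 lay below in all libraries (against 1.57% of all tested loci). Among the 16 that passed the filter by the other varieties alone, 1 lay below. An ABI5-like factor (MSTRG.31967), of a group that carries abscisic acid signals, was at 12.9, 8.72 and 10.2 FPKM against 7.59, 7.66 and 4.55 FPKM without overlap. The 13 tested ethylene synthesis loci had a median of -1.31, which was 0.13 without control replicate 3, and an ACC oxidase homolog (MSTRG.7068), of the family that makes ethylene, was at 6.91, 3.11 and 1.85 FPKM against 16.9, 8.84 and 2.63 FPKM. Medians were -0.18 over 49 ERF factors and -0.21 over 78 WRKY factors, both known as stress regulators.

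Detoxification and water channel genes overlapped between the treatments at most loci. Glutathione S-transferases, which couple toxic compounds to glutathione, had a median log2 fold change of -0.55 in both fits over 72 tested loci. Of these, 0 lay above and 4 below in all libraries (against 1.83% and 1.57% of all tested loci). Among the 59 that passed the filter by the other varieties alone, 3 lay below. Over the 72, leaving out 1 ZM22 library at a time gave medians of -0.93 to -0.35 without and -1.17 to -0.33 with the covariate. Their sums were 1152, 4100 and 2097 FPKM in W72_ZM22, against 3113, 3860 and 2525 FPKM in C72_ZM22, and a zeta class member (MSTRG.21550) was at 43.3, 39.1 and 39.1 FPKM against 64.5, 51.0 and 43.9 FPKM. Aquaporins, the water channels of growing cells, had a median of -0.64, or -0.91 with the covariate, over 39 loci. Of these, 2 lay above and 1 below in all libraries (against 1.83% and 1.57% of all tested loci). Without control replicate 3 the median was 0.47, or -0.20 with the covariate, and without waterlogged replicate 1 it was -0.13. Aquaporin PIP1 (MSTRG.31533) was at 6.75, 109.9 and 86.4 FPKM against 23.7, 66.3 and 199 FPKM, highest in control replicate 3. Antioxidant enzymes had a median of -0.06, and cytosolic ascorbate peroxidase (MSTRG.19220), which removes hydrogen peroxide, was at 120.2, 1224 and 1257 FPKM against 559, 975 and 1004 FPKM. Class III peroxidases had a median of -0.23, or 0.00 with the covariate, and 1.32 without control replicate 3. Heat shock proteins had a median of 0.09 in both fits. Respiratory chain genes had a median of 0.22, which was -0.03 without waterlogged replicate 3. Cell wall loosening genes had one of -0.04, which was 1.04 without control replicate 3.

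Of the most abundant loci of ZM22 seeds, several without a described function spanned a wide range within a treatment. The hypothetical protein MSTRG.1036 was at 7252, 1401 and 473 FPKM in W72_ZM22, against 4538, 4936 and 794 FPKM in C72_ZM22, and MSTRG.22379 at 4851, 1363 and 614 FPKM against 3733, 2991 and 199 FPKM. The unnamed products MSTRG.12904 and MSTRG.15275 ran the other way, at 105, 4397 and 5282 FPKM and at 82.2, 3335 and 5866 FPKM in waterlogged seeds, against 1630.0, 3559.8 and 4705 FPKM and 1111, 3126 and 5229 FPKM in control seeds. Waterlogged replicate 1 stood at the end of the range at all 4 loci, and the treatments overlapped at each. Lipid transfer protein 1 (MSTRG.25847) was at 4263, 1596 and 4023 FPKM against 5559, 2106 and 5042 FPKM. A further abundant lipid transfer protein (MSTRG.23885) was at 1732, 439 and 699 FPKM against 3899, 1901 and 2715 FPKM, all 3 waterlogged libraries lying below the controls (log2 fold change -1.6, SE 1.01).

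Medians of the log2 fold change were -0.24 for hypoxia core genes, -0.23 for sucrose metabolism, -0.29 for sugar transport, 0.10 for other starch-degrading enzymes, 0.45 for endosperm wall breakdown, 0.08 for seed proteases, -0.21 for phenylpropanoid enzymes, -0.13 for the abscisic acid pathway, -0.70 for storage globulins and -0.07 for oil reserves. With the covariate those of hypoxia core genes (0.10) and the abscisic acid pathway (0.03) were positive, and that of storage globulins was -0.04. The abscisic acid pathway list does not hold MSTRG.28154, the ABA 8'-hydroxylase described above. Single libraries moved some of these medians. Without waterlogged replicate 1 that of hypoxia core genes was -1.25 and that of storage globulins -2.48. For endosperm wall breakdown the median was -0.19 without waterlogged replicate 3 and 1.20 without control replicate 3. The 1 tested locus of the raffinose family was at -0.58. The sugar exporter SWEET4 (MSTRG.27945) was at 81.4, 288 and 302 FPKM in W72_ZM22, against 292, 237 and 188 FPKM in C72_ZM22. Glyceraldehyde-3-phosphate dehydrogenase (MSTRG.32493), a step of glycolysis, was at 581, 497 and 301 FPKM against 739, 646 and 404 FPKM. Expansin EXPB3 (MSTRG.4181), which loosens cell walls, was at 73.5, 33.4 and 18.9 FPKM against 76.4, 31.7 and 20 FPKM. Caffeoyl-CoA O-methyltransferase (MSTRG.33645), a lignin enzyme, was at 23.5, 125 and 151 FPKM against 47.4, 102 and 168 FPKM. The groups overlapped at each of these loci. A pyrroline-5-carboxylate synthetase (MSTRG.2769), the first enzyme of proline synthesis, was at 29.5, 18.6 and 18.0 FPKM against 16, 15.3 and 12.1 FPKM, and lay above in all libraries. The cytochrome P450 71C2 locus MSTRG.7112, of a family known from maize for making benzoxazinoid defence compounds, was at 18.8, 6.37 and 20 FPKM against 82.7, 37.7 and 70.5 FPKM, and lay below. Both were singled out after their values were seen.

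Transcripts of other tissues varied with the library rather than the treatment. The 192 photosynthesis loci, as markers of green tissue, summed to 8.72, 32.7 and 35.8 FPKM in W72_ZM22, against 8.32, 7.37 and 60.1 FPKM in C72_ZM22. The 60 root markers summed to 57.9, 594.5 and 822 FPKM against 264, 428 and 589.5 FPKM, led by nicotianamine synthases, which make an iron chelator. Waterlogged replicate 1 was the lowest of the 6 libraries in root markers and in ascorbate peroxidase. How far residual root or shoot tissue enters the differences above was not tested.

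**Figure D5:**
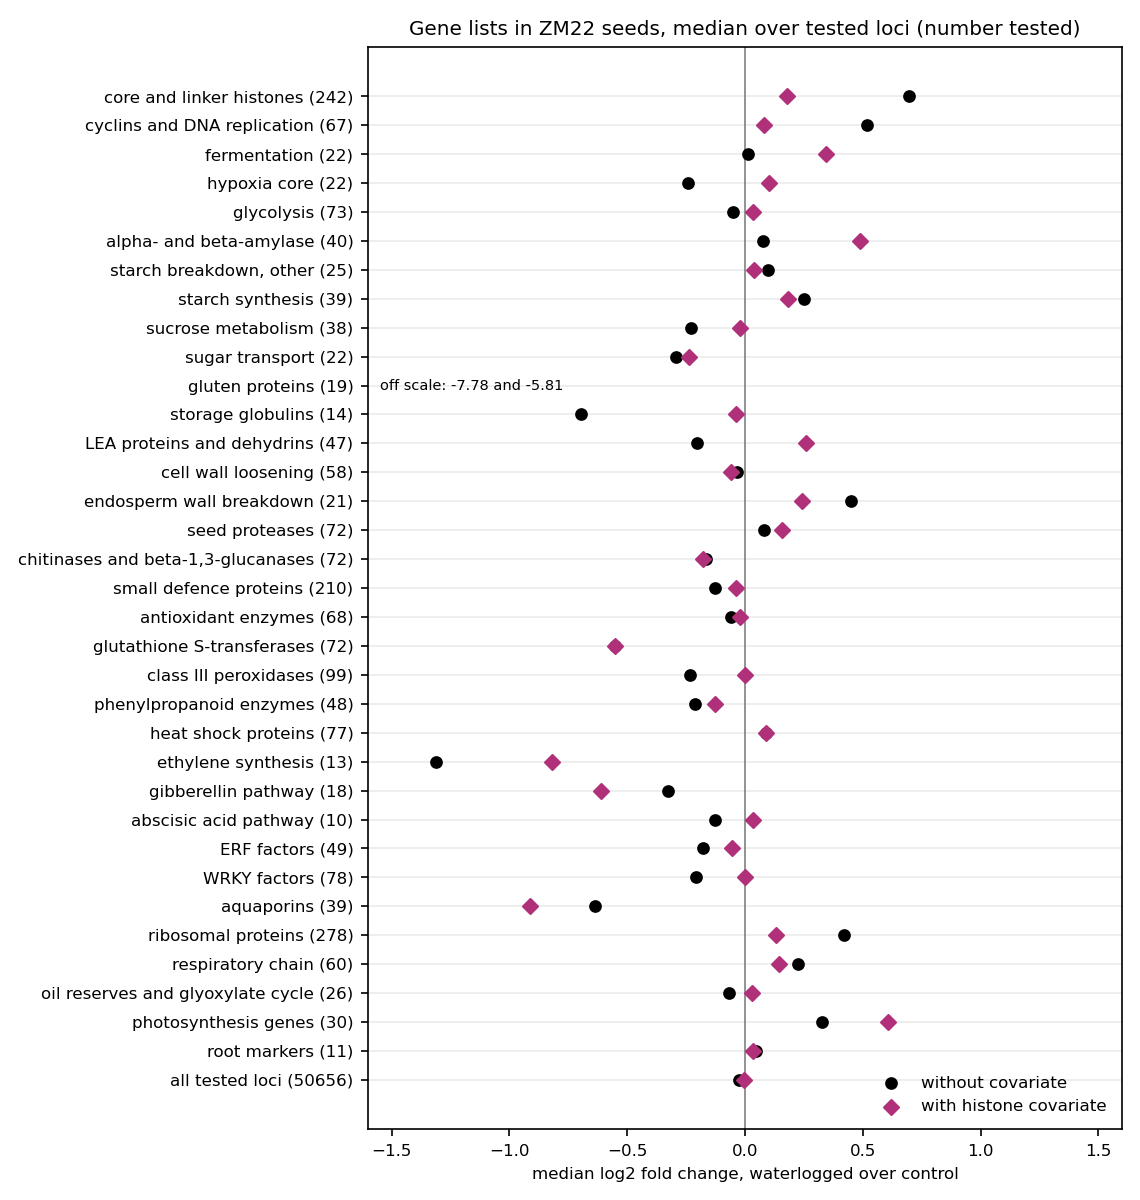
Median log2 fold change (waterlogged over control) of the tested loci of each gene list in ZM22, in the fit without the covariate and in the fit with the histone covariate. Gluten proteins (-7.78 and -5.81) lie beyond the axis and are written in, and the number of tested loci stands beside each list. Most tested gluten loci passed the filter only with the help of the ZM22 libraries, so these medians are in part a product of the filter.

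The study designed qPCR primers for 10 loci, and 3 primer pairs are shown here because they define the transcripts that the study amplified at loci of this comparison. They are written 5′ to 3′ in lower case.
ADH2 forward: aagtctgcctccttagct
ADH2 reverse: gttcaagtccacaccgata
Cht4 forward: gagatagccgccttcttc
Cht4 reverse: agttgtagttccacgtcag
SSII-3 forward: cgaacaccaccagaatca
SSII-3 reverse: accacaaccataacacgat
The ADH2 locus (MSTRG.26087, chromosome 5D, 299832208 to 299835185) was at 3.85, 43.2 and 23.2 FPKM in W72_ZM22, against 4.61, 9.46 and 79.2 FPKM in C72_ZM22. The Cht4 locus (MSTRG.8275, chromosome 2B, 526669706 to 526671012), named Cht4 with the primers and listed as a predicted protein, was at 941, 452 and 398 FPKM against 614, 597 and 224 FPKM. The starch synthase locus SSII-3 (TraesCS7B02G093800, chromosome 7B, 107604257 to 107611452) was at 2.55, 0.872 and 2.09 FPKM against 2.69, 0.942 and 1.36 FPKM. The treatments overlapped at all 3, and the ADH2 locus was high in the libraries with high histone levels, unlike the ADH1A copies. Over the 10 loci the median log2 fold change was -0.06, or 0.30 with the covariate.

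The response of ZM22 was also compared with the mean response of BN207 and BN607 in a test of the difference itself. Only 2 loci (0.00395%) passed an adjusted p of 0.05 in edgeR, in both fits. They were MSTRG.1763, with a difference of -7.48 on the log2 scale (adjusted p = 0.0075, and 0.0136 with the covariate), and MSTRG.30200, with -6.75 (adjusted p = 0.0033, and 0.0047 with the covariate). Both loci passed the filter only through the other varieties and are at 0 in waterlogged and at 0.0345 to 0.210 FPKM in control ZM22 libraries, so these fitted differences give no size. The test called 0 loci with counts divided by 4, in limma and with the replicate block. MSTRG.10405 did not pass, with a difference of 3.64 and an adjusted p of 0.0731 with the covariate. For the reserves, hormone and low-oxygen lists above, no locus passed this test, and their responses are not shown to be particular to ZM22.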

How the data were processed

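Poly(A) RNA of germinating seeds was sequenced by the authors. HISAT placed the reads on the wheat genome IWGSC RefSeq v1.0, and StringTie built the transcripts and their values, with versions not stated. The deposited table gives an FPKM and an estimated count (expected count) per locus and library, both made by the authors. The step that made the estimated counts is not named. They appear to derive from coverage, in which case a test on them may overstate their precision, which was not tested.

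Loci with at least 1 FPKM in at least 3 of 18 libraries were tested. Counts, rounded to whole numbers, were scaled by TMM and fitted by the quasi-likelihood model of edgeR 4.0.16 (R 4.3.3) with 6 group means, without and with the library median of log2(FPKM + 1) over histone loci (H1, H2A, H2B, H3 and H4 by description) as a covariate. Calls required a Benjamini-Hochberg adjusted p under 0.05 over all tested loci. P-values of the edgeR fits rest on the spread between the 3 libraries of each group, pooled over the 6 groups. The study calls these libraries biological replicates. Without the covariate, edgeR's common coefficient of variation was 0.68 over all 18 libraries and 0.72 in the ZM22 libraries alone. The fit on the ZM22 libraries alone called 0 loci. Where 1 group was at 0, a fold was set against a floor of 3 estimated counts per library. Such counts may not equal sequenced fragments, so a fold of this kind is not a lower bound.

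The gene lists are patterns on the descriptions. The members and lists were chosen with earlier results of these data known. Named loci were those called, and of each list the most abundant 2 and the one of smallest p with the covariate, the 10 most abundant loci and the 10 qPCR loci. Others, families among them, were singled out after their values were seen. Alternatives were DESeq2 1.42.0, limma 3.58.1, other scaling and filters, counts divided by 4, each ZM22 library left out, a replicate block, fewer libraries and other covariates. The fits were also run on counts simulated from the fitted edgeR model itself. That run cannot show how they behave on these estimated counts. Sequences other than primers were not used here.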

Additional observations from a re-analysis of the deposited data

Results flagged for a closer look

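The response of ZM22 differed from the mean response of BN207 and BN607 at 2 loci by edgeR's test of the difference itself. MSTRG.1763, a hypothetical protein on chromosome 1B, had a difference of -7.48 on the log2 scale, and MSTRG.30200, an unnamed locus on chromosome 6B, one of -6.75. Both loci passed the filter on low values only through the other varieties, and in ZM22 they were at 0 in the 3 waterlogged and at 0.0345 to 0.210 FPKM in the 3 control libraries. The fitted values depend on how 0 is handled in the fit, so they give no size of the effect, and 0 loci passed with counts divided by 4, in limma and with the replicate block. In the 12 libraries of the other varieties these loci were at 3.39 to 13.1 and 6.43 to 10.7 FPKM, without a gap between treatments.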

How the results depend on the processing

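Of 4017 fold changes of 123 named loci under other settings, 292 had another sign than in the report, 10 newly passed the threshold (all in DESeq2) and 48 called values were lost. The numbers of calls without and with the covariate were 144 and 193 in DESeq2, 0 and 0 in limma on log2(FPKM + 1), 0 and 0 with counts divided by 4, and 0 and 0 in the 6 ZM22 libraries alone. With the covariate they were 2 without W72_BN207 library 1, and 2 with a slope per variety. The study's thresholds were passed by 740 loci in DESeq2, 239 in limma, 1304 without a filter and 148 at 5 FPKM. The difference from the other varieties was called at 147 and 176 loci in DESeq2, 0 and 0 in limma, 0 and 0 with counts divided by 4, and, with the covariate, 4 at 5 FPKM and 65 with a slope per variety. The causes were not tested.

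Leaving out 1 ZM22 library at a time gave 2 to 8 calls without and 1 to 11 with the covariate, 407 to 2000 loci past the study's thresholds, 1 to 7 and 1 to 11 called differences from the other varieties, and a histone difference of -0.0955 to 1.68. The highest count, 2000, came without control replicate 3, and 1048 came without waterlogged replicate 1. The paper does not describe same-numbered libraries as pairs, and the main fits did not take them as such. Same-numbered libraries of ZM22 deviated together in 2 of 3 pairs (correlations of 0.58, -0.18 and 0.40), and in 3 of 9 over the varieties. With 3 libraries a group, these correlations cannot settle whether the numbers are pairs. With a replicate block, 0 loci were called in either fit and 0 differed from the other varieties.

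The log2 fold changes of 8 loci turned round, or reached 0.00, by more than 1 SE when 1 library was left out. TraesCS1B02G119300 ranged between -0.71 (without waterlogged replicate 1) and 7.51, and with the covariate TraesCS7A02G251400 between -0.24 (without waterlogged replicate 1) and 1.01. MSTRG.24923 ranged between -2.30 (without waterlogged replicate 3) and 4.73, with the covariate between -1.54 and 4.52, and was at -0.71 with the replicate block. With the covariate MSTRG.9892 ranged between -0.26 (without waterlogged replicate 3) and 1.67. Without control replicate 3, TraesCS7D02G552800 was at 0.00, the other end of its range being -5.45, or at 0.26 with the covariate, the other end being -5.47. Without that library MSTRG.6719 was at 1.09, with a lower end of -2.05, MSTRG.4653 at 2.07, with a lower end of -5.08, and with the covariate MSTRG.31105 at 0.19, with a lower end of -0.98. MSTRG.2079 was at 0.035 in limma with the covariate. Of 703 list medians recomputed after the data were seen, 56 moved by more than 1 SD, 16 of them without control replicate 3 and 11 without waterlogged replicate 1. The number of libraries, 3 a group, limits the precision of every value.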
